A study of Homo sapiens with 25 samples.

Results

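The regions described here are the stretches of the genome where NKX2-1 was bound in the lung adenocarcinoma line NCI-H2087 and in none of 3 other lines of the same tumour type. The NKX2-1 peaks of this line and of HCC364, NCI-H358 and NCI-H441 on chromosomes 1 to 22 and X were merged into 145799 regions, and a region was kept when it held an NCI-H2087 peak and no peak of any other line. This left 9693 private regions, 13.1% of the 74069 regions bound in NCI-H2087 and 6.65% of all merged regions. The regions were thus chosen by the presence and absence of NKX2-1 peaks in the 4 lines, and the values below that describe NKX2-1 itself carry no test.

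All 4 lines are established human cell lines grown in the same serum-containing medium, with no allele or agent named in the labels, and each line is labelled as lung adenocarcinoma. Chromatin was fixed with formaldehyde, sheared and immunoprecipitated, and 20 of 25 libraries have a peak list. NCI-H2087 was profiled for 11 targets (NKX2-1, FOXA1, FOXA2, SOX2, c-Jun, EP300, CTCF, RNA polymerase II, H3K27ac, H3K4me1 and H3K4me3), and the other lines for NKX2-1, H3K27ac and H3K4me1. Each combination of line and target is 1 library, so no value below has a replicate, and a line stands for itself. Intervals are exact Clopper-Pearson 95% intervals over regions and cover counting error only.

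NKX2-1 is a homeodomain transcription factor that specifies lung and thyroid and keeps lung epithelial cells in their lineage, and it marks most lung adenocarcinomas. FOXA1 and FOXA2 are forkhead factors that can bind closed chromatin and are partners of NKX2-1 in lung epithelium, SOX2 is a factor of the proximal airway, c-Jun is a subunit of AP-1, and EP300 is an acetyltransferase found at active enhancers. H3K4me1 marks enhancers whether or not they are active, H3K27ac marks active enhancers and promoters, and H3K4me3 marks promoters. CTCF binds insulators and chromatin loop anchors.

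The promoters of 4 genes that overlap private regions are printed because they are ends of genes that the results turn on. Each is the RefSeq window (GRCh38.p14) from 250 bases before to 50 bases after a start, read 5′ to 3′ on the strand of the gene. Capitals mark the core letters of an NKX-type site, CACTT or CTCAAG, on either strand.
IGF2BP3: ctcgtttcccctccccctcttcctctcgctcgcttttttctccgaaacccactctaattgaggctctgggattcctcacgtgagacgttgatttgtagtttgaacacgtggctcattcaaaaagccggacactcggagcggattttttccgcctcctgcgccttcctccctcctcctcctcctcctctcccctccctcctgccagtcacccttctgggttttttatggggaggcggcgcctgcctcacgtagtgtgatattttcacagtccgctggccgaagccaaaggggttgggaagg
SLC5A1: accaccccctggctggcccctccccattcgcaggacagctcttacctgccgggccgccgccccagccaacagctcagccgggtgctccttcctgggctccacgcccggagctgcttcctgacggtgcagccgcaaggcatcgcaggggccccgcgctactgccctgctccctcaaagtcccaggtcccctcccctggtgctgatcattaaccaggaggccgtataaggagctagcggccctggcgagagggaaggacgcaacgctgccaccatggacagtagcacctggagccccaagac
SELENOP: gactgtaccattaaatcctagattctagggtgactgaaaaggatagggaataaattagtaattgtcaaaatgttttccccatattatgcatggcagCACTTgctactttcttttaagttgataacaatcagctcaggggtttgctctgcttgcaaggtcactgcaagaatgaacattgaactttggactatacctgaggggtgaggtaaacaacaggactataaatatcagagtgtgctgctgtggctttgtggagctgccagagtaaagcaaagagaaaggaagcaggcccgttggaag
RFPL2: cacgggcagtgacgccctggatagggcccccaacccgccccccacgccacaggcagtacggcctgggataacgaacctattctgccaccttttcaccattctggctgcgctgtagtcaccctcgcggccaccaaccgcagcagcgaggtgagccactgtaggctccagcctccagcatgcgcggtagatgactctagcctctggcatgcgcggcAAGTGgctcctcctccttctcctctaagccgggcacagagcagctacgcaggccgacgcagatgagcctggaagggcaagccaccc
The IGF2BP3 window (chr7:23470442-23470741, minus strand) belongs to the gene of an RNA-binding protein of fetal tissue and tumours. It holds the summit of the private peak at 23470677, and it has no NKX-type match. The SLC5A1 window (chr22:32043011-32043310, plus strand) belongs to the sodium-glucose cotransporter and has no match either. The SELENOP window (chr5:42811843-42812142, minus strand), of the plasma selenium carrier, has 1 match, and so does the RFPL2 window (chr22:32205024-32205323, minus strand). All 4 windows overlap a private region that carried H3K27ac, H3K4me3 and RNA polymerase II in NCI-H2087. The same holds for windows of FOXB1, with 3 matches, and SPMAP2L, with 0, which are not printed.

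Private regions lay mostly away from starts and were narrow and of moderate height. Their median width was 366 bp against 872 bp for the 32534 regions bound in all 4 lines, which are unions of several peaks. The median NKX2-1 fold, the authors' summit signal over local background, was 6.10 (lowest 2.09, quartiles 4.91 and 8.08, highest 52.7) against 10.9 at regions bound in 4 lines. The lists begin at a −log10 q of about 3, and 107 private regions had a −log10 q under 4, with a median fold of 3.13. At the other edge of the rule, 35 private regions lay within 100 bp of a peak of another line (median fold 4.52), and 50 regions of NCI-H2087 were shared with 1 line by less than 100 bp (median fold 4.32). Many were close to binding elsewhere: 17.5% lay within 1 kb and 69.6% within 10 kb of an NKX2-1 peak of another line, and 32.7% lay within 10 kb of a region bound in 4 lines.

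The labels of the lines were checked at marker genes by H3K27ac within 1 kb of a gene end. All 6 epithelial markers were acetylated in every line. The lung lineage markers NKX2-1, FOXA1 and FOXA2 were acetylated in all lines except for 1 of them in NCI-H441. The alveolar type 2 markers SFTPB, NAPSA and SLC34A2 were acetylated at 2 of 3 genes in NCI-H2087, at 3 in both HCC364 and NCI-H441, and at 1 in NCI-H358. Of 8 markers of blood, endothelium and fibroblasts, NCI-H2087 had H3K27ac at 2, CSF1R and CD3E, and the other lines at 1 or 2. Peak lists ran from 7426 peaks for EP300 and 9305 for SOX2 to 122178 for H3K4me1 in HCC364, so a share with EP300 or SOX2 starts from a short list.

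Histone marks at the private regions were more frequent in NCI-H2087 than in the other lines, as the plot of both marks by line shows. H3K27ac overlapped 27.3% (26.4 to 28.2) of them in NCI-H2087, 11.1% in HCC364, 9.83% in NCI-H441 and 11.1% in NCI-H358. The value of NCI-H2087 lay 16.6 percentage points above the mean of the other 3 lines, which was 10.7% ± 0.730 (SD, n = 3 lines). H3K4me1 overlapped 47.5% (46.5 to 48.5) in NCI-H2087, 20.9% in HCC364, 22.6% in NCI-H441 and 26.6% in NCI-H358, a difference of 24.1 percentage points from a mean of 23.4% ± 2.94 (SD, n = 3 lines). NCI-H2087 was the highest line for both marks, and the exact one-sided permutation of 1 line against 3 gave p = 0.25 for each (adjusted over the 2 marks, 0.25), the smallest p that 4 lines allow. The rule that chose the regions does not treat the 4 lines alike, so no conclusion is drawn from this permutation. At regions bound in all 4 lines the lines were close together: H3K27ac overlapped 65.8% to 70.0% and H3K4me1 72.5% to 81.5%, and there NCI-H2087 was the lowest of the lines for H3K4me1. Beside these stand the shares over all 74069 regions bound in NCI-H2087: H3K27ac overlapped 53.2% of them in NCI-H2087, 43.3% in HCC364, 46.6% in NCI-H441 and 42.7% in NCI-H358. For H3K4me1 the corresponding shares were 64.9%, 54.6%, 66.3% and 57.7%. Private regions were thus below the background for both marks in every line.

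**Figure D1:**
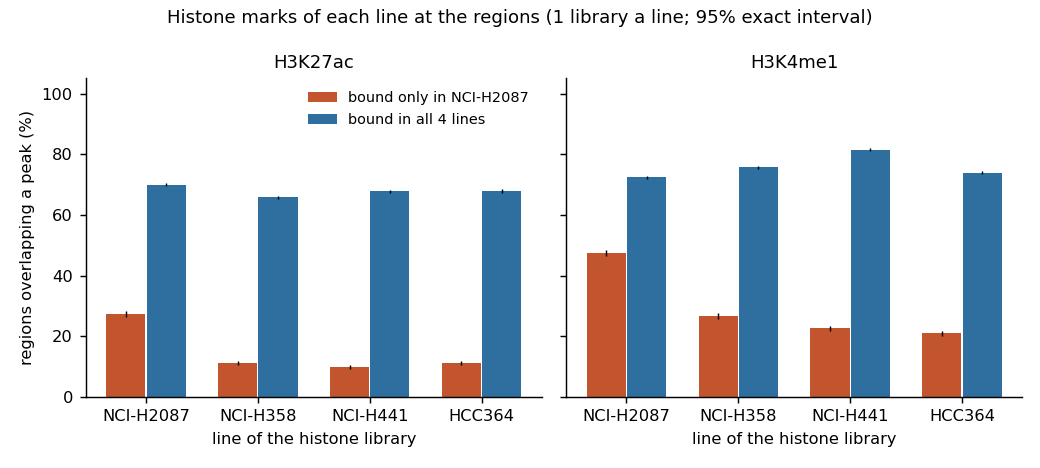
Share of NKX2-1 regions (y axis, percent) that overlap an H3K27ac peak (left) or an H3K4me1 peak (right) of each line (x axis), for regions bound only in NCI-H2087 and in all 4 lines; error bars are 95% exact intervals. Private regions have H3K27ac at 27.3% in NCI-H2087 and at 9.83% to 11.1% in the other lines, while regions bound in all 4 lines stand at 65.8% to 70.0% in every line.

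By combined state, 18.7% of the private regions carried both marks in NCI-H2087, 28.8% H3K4me1 without H3K27ac, 8.59% H3K27ac without H3K4me1 and 43.9% neither. Neither mark was called in any of the 4 lines at 35.97% of them. Of the 2645 private regions with H3K27ac in NCI-H2087, 1294 (48.9%) were acetylated in no other line and 556 (21.0%) in all 3 others. Of the 4601 with H3K4me1, 1607 (34.9%) had it in no other line. The reverse case was rare: 271 private regions (2.80%) had H3K27ac in another line and none in NCI-H2087.

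FOXA factors were at the private regions about as often as at NKX2-1 regions in general, whereas c-Jun and EP300 were seldom there. FOXA2 overlapped 61.2% (60.2 to 62.1) of the private regions against 59.7% of all NCI-H2087 regions. FOXA1 overlapped 52.0% (51.0 to 53.0) against 54.9%. SOX2 overlapped 12.7% (12.1 to 13.4) against 11.9%. The shares of these 3 factors stand within 3 percentage points of the background. At regions bound in 4 lines FOXA2 was at 63.2%, FOXA1 at 60.7% and SOX2 at 13.9%. The difference for FOXA1, private minus 4-line regions, was -8.62 percentage points (-9.76 to -7.49). c-Jun overlapped 5.78% (5.32 to 6.26) against a background of 28.0%, and 44.0% of regions bound in 4 lines. EP300 overlapped 1.11% (0.915 to 1.34) against 9.43%, and 16.7% of regions bound in 4 lines. Both were several times less frequent at the private regions than in the background. Regions bound in NCI-H2087 and 1 or 2 other lines stood between the private and the 4-line regions. There c-Jun was at 12.8% and 22.3%, EP300 at 2.47% and 5.81%, and H3K27ac at 38.0% and 47.9%. FOXA2 was at 53.8% and 57.1% of these regions, FOXA1 at 46.8% and 51.7% and SOX2 at 8.94% and 9.95%, each below its private share.

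CTCF overlapped 10.1% (9.47 to 10.7) of the private regions against a background of 21.5%, H3K4me3 12.0% (11.4 to 12.7) against 20.3%, and RNA polymerase II 11.1% (10.5 to 11.8) against 24.7%. For scale, the 48914 regions bound in exactly 1 other line, where NCI-H2087 has no NKX2-1 peak, overlapped FOXA2 of NCI-H2087 at 10.2%, FOXA1 at 7.80%, c-Jun at 1.08% and SOX2 at 0.0736%. CTCF was the exception among the factors, at 15.5% of those regions, above its share at the private regions.

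**Figure D2:**
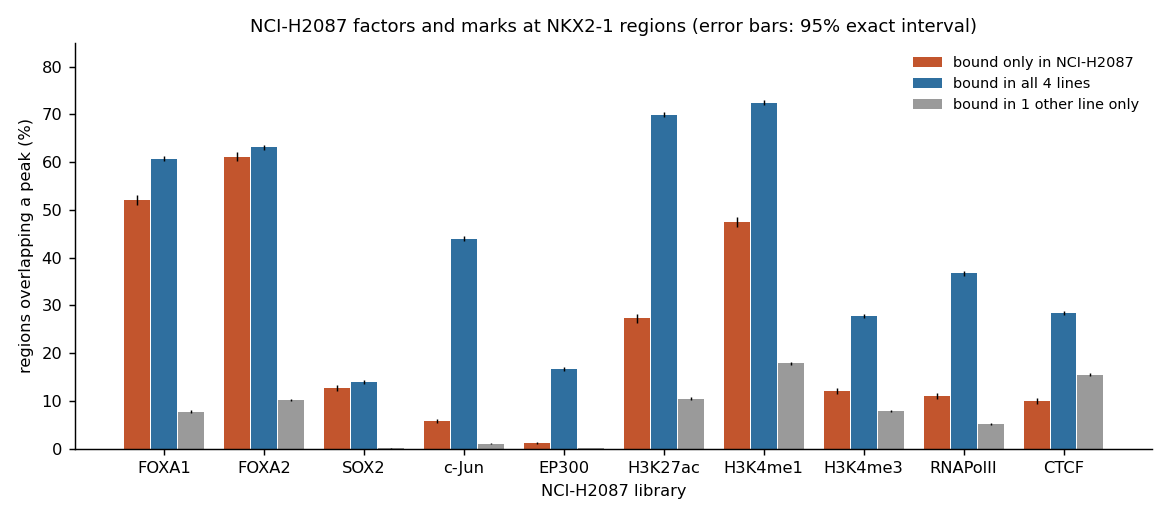
Share of NKX2-1 regions (y axis, percent) overlapping a peak of each other NCI-H2087 library (x axis), for regions bound only in NCI-H2087, in all 4 lines, and in 1 other line only; error bars are 95% exact intervals. FOXA2 (61.2% against 63.2%) and SOX2 (12.7% against 13.9%) differ little between the private and the 4-line regions and FOXA1 (52.0% against 60.7%) somewhat more, while c-Jun (5.78% against 44.0%), EP300 (1.11% against 16.7%) and H3K27ac (27.3% against 70.0%) differ by more than FOXA1.

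Because private peaks are weaker, the regions were compared within the quartile ranges of NKX2-1 fold of the private set. In each range FOXA1, FOXA2 and SOX2 were more frequent at private regions than at regions bound in 4 lines, which turns the order seen without the ranges. The FOXA1 intervals overlapped in the lowest and the highest range. From the lowest to the highest range FOXA2 overlapped 44.8%, 54.7%, 64.4% and 80.9% of the private regions, against 35.2%, 38.4%, 44.9% and 73.1% of the 4-line regions. SOX2 overlapped 3.84%, 5.86%, 11.7% and 29.6% against 0.564%, 1.14%, 1.63% and 19.7%. FOXA1 overlapped 36.5%, 44.7%, 53.7% and 73.3% against 32.8%, 34.2%, 41.9% and 71.0%. All 3 factors were thus more frequent at stronger private peaks. Promoter marks differed: H3K4me3 overlapped 25.2%, 11.9%, 6.98% and 4.09% of the private regions against 39.9%, 36.7%, 34.5% and 24.0% of the 4-line regions. The ranges were not split by position, so the part of promoters in the turned order was not tested. Over 1 kb from a start, without the ranges, FOXA1, FOXA2 and SOX2 were at 54.5%, 64.0% and 13.6% of private regions. The 4-line regions there stood at 65.7%, 68.8% and 16.5%.

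The difference in c-Jun, EP300 and H3K27ac kept its direction within the ranges. c-Jun overlapped 3.47%, 4.54%, 5.08% and 10.0% of the private regions against 15.8%, 20.6%, 25.6% and 53.8%. EP300 overlapped 0.908%, 0.660%, 0.454% and 2.43% against 4.23%, 5.84%, 7.61% and 21.4%. H3K27ac overlapped 38.1%, 26.4%, 21.6% and 23.03% against 59.1%, 60.6%, 62.5% and 73.9%. Acetylation of the private regions was most frequent at the weakest peaks, where H3K4me3 was also most frequent (25.2% in the lowest range, 4.09% in the highest). The 4-line regions stayed wider within each range, with medians of 722 to 935 bp against 315 to 491 bp, and the highest range is open upwards, so that its 4-line regions reach higher folds. With factor summits required within 200 bp of the NKX2-1 summit, a measure that does not use width, and without the fold ranges, FOXA2 was 4.42 percentage points more frequent at private than at 4-line regions, while the differences were -2.04 for FOXA1 and -0.284 for SOX2.

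**Figure D3:**
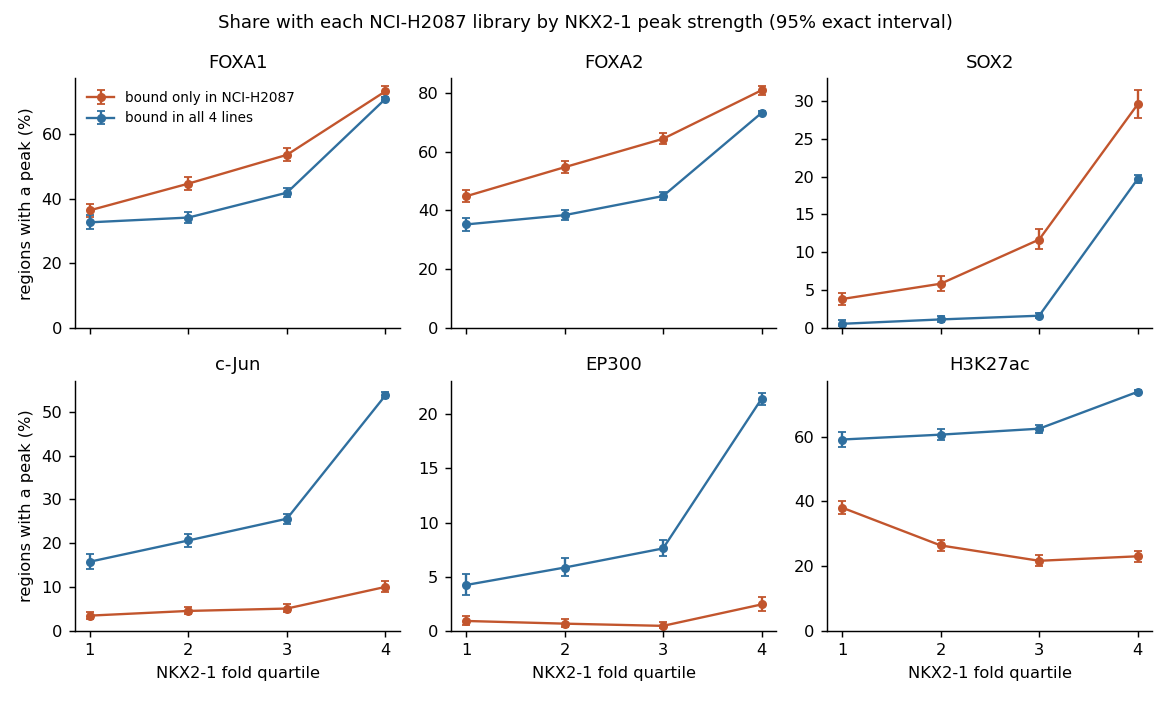
Share of NKX2-1 regions with a peak of each NCI-H2087 library (y axes, percent, each panel on its own scale) by quartile range of NKX2-1 fold, from the lowest (1) to the highest (4), for regions bound only in NCI-H2087 and in all 4 lines; error bars are 95% exact intervals. The private regions lie above the 4-line regions in the FOXA1, FOXA2 and SOX2 panels and below them in the c-Jun, EP300 and H3K27ac panels.

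The commonest combination of the 5 factors at a private region was FOXA1 with FOXA2, at 3495 regions (36.1%), followed by none of the 5 at 3418 (35.3%) and FOXA1, FOXA2 and SOX2 at 964 (9.95%). SOX2 was almost always beside a FOXA factor, at 1174 of 1234 regions (95.1%). Private regions with a given factor were less often acetylated than 4-line regions with that factor. H3K27ac lay at 26.2% of the private SOX2 regions against 80.7% of the 4-line SOX2 regions. With both FOXA factors it lay at 25.6% against 75.9%, with c-Jun at 54.1% against 83.2%, and with EP300 at 76.9% against 93.1%. Private regions with neither FOXA factor were acetylated at 32.1%, and those with EP300 alone at 88.2% of 34 regions.

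All 5 factors met at 26 private regions (0.268%, against 3.31% of all NCI-H2087 regions). Their median NKX2-1 fold was 24.0, 19 of them carried H3K27ac and 25 carried H3K4me1 in NCI-H2087, and 1 was acetylated in any other line. The 4 strongest private regions belong here. The highest fold, 52.7, was at chr10:111136895-111137978, 56.0 kb from ADRA2A, an adrenergic receptor gene, where all 5 factors, H3K27ac and H3K4me1 were present in NCI-H2087, neither mark in the other lines, and the nearest NKX2-1 peak of another line was 143 kb away. The second, fold 45.9, lay in PRLHR, the gene of the prolactin-releasing hormone receptor, at chr10:118592775-118594214, with all 5 factors and H3K4me1 but no H3K27ac. The third, fold 43.7, lay inside RORA, which encodes a nuclear receptor, at chr15:61159766-61160476, with all 5 factors and both marks. The fourth, fold 43.3, lay inside FAM216B at chr13:42787414-42788222, also with all 5 factors and both marks. Of the 10 strongest regions, among them those nearest NXPE2, LAPTM4A, PTPRC, SLC17A6 and OR9G4, every one had FOXA1, FOXA2 and H3K4me1 in NCI-H2087. Only the one nearest OR9G4 was acetylated in another line (NCI-H441), and only the one in FAM216B had H3K4me1 in another line (NCI-H358). Among these 10 the nearest NKX2-1 peak of another line lay from 0.962 kb (OR9G4) and 1.99 kb (PRLHR) to 143 kb (ADRA2A) away.

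Private regions at gene starts differed from those elsewhere. A start of a protein-coding gene lay within 1 kb of 697 private regions, 7.19% (6.68 to 7.72), against a background of 13.5% of all NCI-H2087 regions and 18.9% of regions bound in 4 lines. A further 45.0% lay inside genes and 47.8% outside genes. The median distance to a start was 41.9 kb, against 22.9 kb for regions bound in 4 lines. Regions bound in exactly 1 other line stood close to the private regions in position. Of these 48914 regions, 6.32% lay within 1 kb of a start, a further 45.7% inside genes and 47.96% outside genes. Their median distance to a start was 40.04 kb. A low share at starts was thus not particular to the private regions. The 697 regions at starts carried H3K4me3 at 84.1%, H3K27ac at 76.9%, RNA polymerase II at 68.3%, FOXA2 at 24.4% and SOX2 at 2.01%. The 8996 other private regions carried H3K4me3 at 6.46%, H3K27ac at 23.4%, RNA polymerase II at 6.68%, FOXA2 at 64.0% and SOX2 at 13.6%. The set thus holds a small part with promoter marks and few FOXA peaks and a large distal part with FOXA peaks and little acetylation. Regions bound in 4 lines differed by position in the same directions. At starts they had H3K4me3 at 93.1%, H3K27ac at 93.3%, FOXA2 at 38.9% and SOX2 at 2.85%. Distal regions bound in 4 lines had H3K4me3 at 12.6%, H3K27ac at 64.5%, FOXA2 at 68.8% and SOX2 at 16.5%. The split is thus shared, while distal acetylation was lower in the private set.

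In the RefSeq promoter windows, 298 windows of 272 genes overlapped a private region. The NKX-type letters CACTT, searched on both strands, were in 40.9% (35.3 to 46.8) of them, in 40.7% of all 22132 windows and in 45.4% of the 5693 windows overlapping a 4-line region. The forkhead letters TGTTTAC were in 3.36% (1.62 to 6.08) against 2.85% of all windows, and the AP-1 letters TGANTCA in 5.70% (3.36 to 8.98) against 6.15%. The ETS letters CCGGAAG were in 17.1% (13.0 to 21.9) against 12.8% of all windows and 23.6% of windows at 4-line regions. Of the 10 motifs searched, the ETS letters were the only ones whose interval did not hold the share over all windows. The other 6 were CTCAAG and CACTCAA (NKX-type), TGTTTGC (forkhead), ACAANG (SOX), AGGGGGC (CTCF) and GGAATG (TEAD), all on both strands. The intervals were not adjusted for the 10 motifs. Median GC content was 66.7% in the windows at private regions, 62.3% in all windows and 61.7% in those at 4-line regions. The part of GC content was not tested. All these windows are promoters, so they say nothing of the distal regions.

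Some genes were acetylated at an end in NCI-H2087 and at neither end, within 5 kb, in the other 3 lines. There were 174 such genes, and 34 of them (19.5%) had an acetylated private region within 1 kb of an end. The share was 4.26% (494 of 11597) among all genes acetylated at an end in NCI-H2087. No test goes with these shares, since the 174 genes were chosen by the absence of H3K27ac in the lines that lack the private peaks. The 8 with the highest NKX2-1 fold were SLC5A1 (16.9), CASP5 (16.4), GKN2 (15.0), SELENOP (11.5), LY86 (10.8), RFPL2 (9.87), HOXB9 (9.32) and SPMAP2L (8.88). FOXA1, FOXA2 and SOX2 were at the regions of SLC5A1, CASP5, encoding an inflammatory caspase, and GKN2, a gastric mucosal gene, and c-Jun also at that of SLC5A1. The region at SELENOP had both FOXA factors, and those at LY86, RFPL2, HOXB9 and SPMAP2L had none of the 5. The regions at CASP5, GKN2 and LY86 had no H3K4me3 and no RNA polymerase II peak in NCI-H2087, while those at the other genes had both. An end here is either end of a gene, not always a start. SLC5A1 had a second private region over its printed promoter (fold 6.88) with none of the 5 factors.

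Most private regions stood alone, and their share in clusters was not set beside that of another set of regions. With a stitching distance of 10 kb, 439 regions (4.53%, 4.12 to 4.96) stood in 135 clusters of 3 or more, and 7862 stood alone. The clusters with the most private regions were of different kinds, and 3 of them appear in the maps of peaks.

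At IGF2BP3 on chr7:23465342-23475069 the 5 private regions covered the start of the gene. Their NKX2-1 folds ran from 5.55 to 13.8, all 5 carried H3K27ac, 3 had FOXA1 and FOXA2, and no other line had an NKX2-1 peak there. H3K27ac covered 9.73 kb of the 9.73 kb in NCI-H2087, 0.395 kb in NCI-H441 and 0 kb in NCI-H358 and HCC364. The other lines were thus almost without the mark over the cluster, and their nearest NKX2-1 peaks lay 29.3 kb or more from its regions.

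At OCLN, which encodes the tight junction protein occludin, 7 private regions lay on chr5:69458644-69504422, upstream of and inside the start of the gene, with 4 other NKX2-1 regions between them. Their folds ran from 3.11 to 12.3, 5 had FOXA2 and 3 had H3K27ac. H3K27ac covered 13.5 kb of the cluster in NCI-H2087, 7.30 kb in HCC364, 12.4 kb in NCI-H441 and 7.01 kb in NCI-H358. Acetylation of this locus was thus present in every line.

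At AKAP6, a gene of a kinase-anchoring protein, all 5 private regions of chr14:32345509-32367437 were acetylated in NCI-H2087, with low folds of 3.05 to 4.24, and H3K27ac covered 4.00 kb there against 0 kb in the other 3 lines. The local background of the NKX2-1 library, solved from fold and p, was 2.85 times its lowest value at these regions. Its part in the result was not tested.

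**Figure D4:**
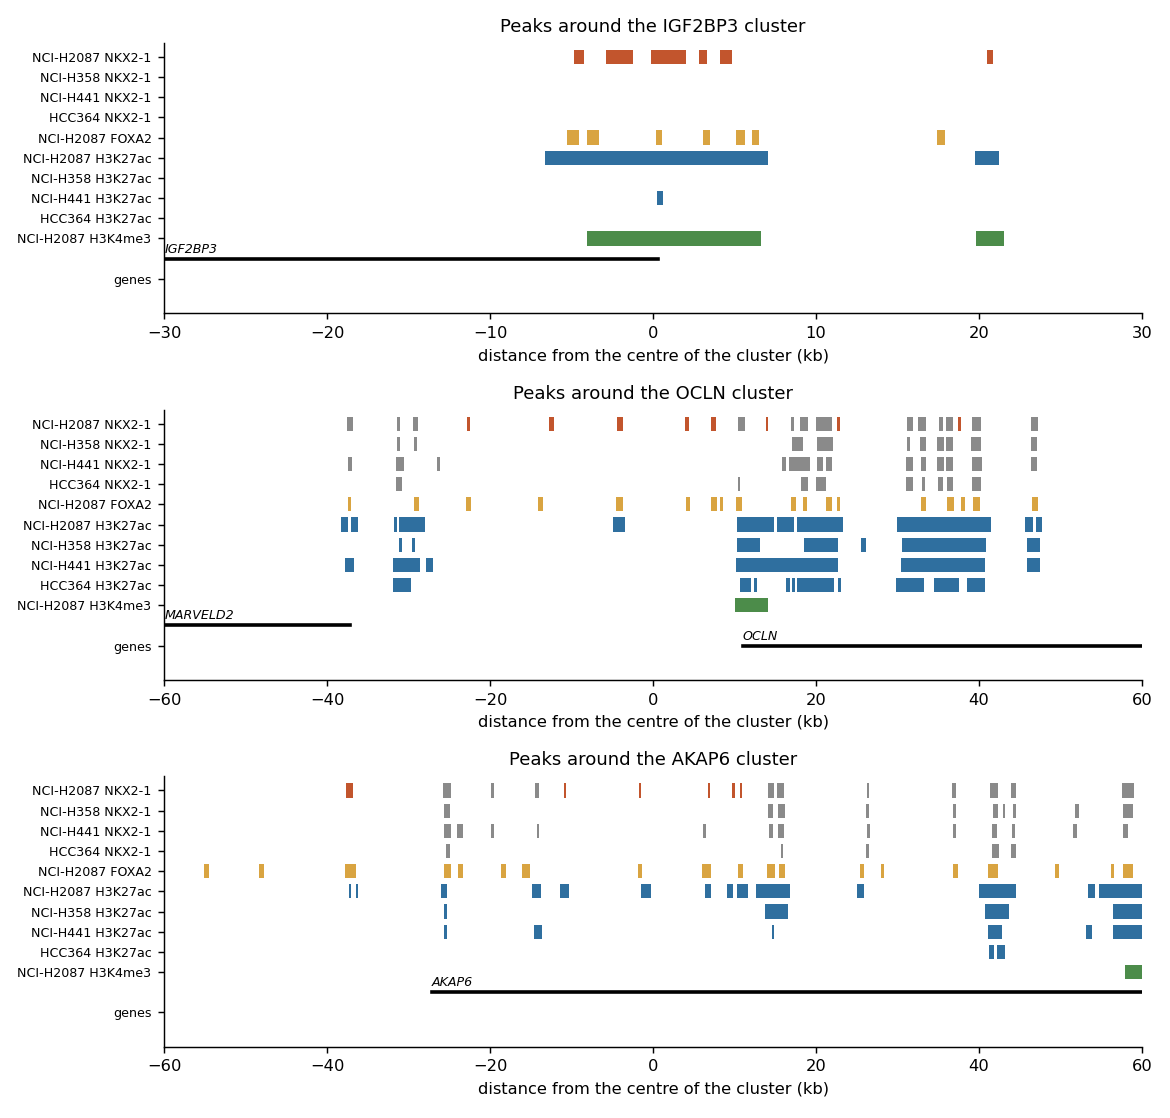
Peaks around the private clusters at IGF2BP3, OCLN and AKAP6, by distance from the cluster centre (x axis, kb), 1 row per library (y axis); red bars are private NKX2-1 regions, grey bars NKX2-1 peaks of shared regions or other lines, yellow FOXA2, blue H3K27ac, green H3K4me3, and black lines genes. At IGF2BP3 an H3K27ac peak of NCI-H2087 spans the whole 9.73 kb cluster, where NCI-H441 has 0.395 kb of the mark, and at OCLN all 4 lines have H3K27ac inside the gene.

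The largest cluster held 10 private regions on chr12:37616106-37655560, 661 kb from its nearest gene end, that of ALG10B. No other line had NKX2-1 or H3K27ac there, 6 regions had FOXA2, 5 had SOX2 and 2 had H3K27ac, with folds from 2.33 to 17.4. The local background of NKX2-1 was 9.89 times the lowest of the library. In the 1 Mb bin from 37 to 38 Mb of chromosome 12, 16 of 17 regions were private, and NCI-H358 and NCI-H441 had no NKX2-1 peak and HCC364 had 1. The part of the high background was not tested. Over the genome the private share was 12.4% of regions in bins under 1.2 times the lowest background and 16.9% in the 30 bins at 3 times or more. Without those bins 9482 private regions remained, with H3K27ac at 27.1%, FOXA2 at 61.1% and c-Jun at 5.72%.

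Smaller clusters lay at ANK3, an ankyrin gene (5 regions, H3K27ac 5.41 kb in NCI-H2087 and 0 to 1.42 kb elsewhere), near MME, a membrane metallopeptidase gene (4 regions, none acetylated), and near FOXB1 (4 regions, none acetylated). The clusters near MME and FOXB1 thus had no acetylated private region, while all those of IGF2BP3 and AKAP6 had it. The private region over the FOXB1 promoter (fold 7.08) lay outside the cluster near that gene. This promoter region carried H3K27ac, FOXA1 and FOXA2 in NCI-H2087.

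Private shares varied along the genome. By chromosome they ran from 5.29% (4.27 to 6.47) on chromosome 19 to 17.6% (15.8 to 19.5) on chromosome 13 and 17.4% (16.3 to 18.4) on chromosome 5. In 1 Mb bins with at least 15 regions the median share was 12.2%. The bin with the most private regions, 23 of 51, was at 29 to 30 Mb of chromosome 7, with CHN2 and WIPF3 among its nearest genes. On chromosome 18, 16 of 25 regions at 6 to 7 Mb were private, near ARHGAP28 and L3MBTL4, with an NKX2-1 background only 1.10 times the lowest. There NCI-H2087 had 25 NKX2-1 peaks, HCC364 had 15, NCI-H441 had 5 and NCI-H358 had 2.

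When each private region within 50 kb of a gene end was given to that nearest gene, 4116 of 19974 protein-coding genes had at least 1 and 340 at least 3. The genes with the most were FSTL4 (8), ARHGAP28 and OCLN (7 each), and several with 6 each, among them AKAP6, SOBP, CUL2, FAM78B, SKAP2, HERPUD2 and PRR5L. At ARHGAP28 5 of 7 private regions were acetylated and 5 had c-Jun. H3K27ac covered 5.31 kb from 25 kb before to 25 kb after the gene in NCI-H2087 and 0 kb in each other line, and H3K4me1 16.4 kb against 0, 0 and 0.426 kb. At SOBP 5 of 6 were acetylated, and H3K27ac covered 5.10 kb in NCI-H2087, 0 kb in NCI-H358 and NCI-H441 and 0.285 kb in HCC364. These loci were thus almost without the mark in the other lines.

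At AKAP6 H3K27ac covered 61.3 kb in NCI-H2087 against 22.7, 27.7 and 12.5 kb in NCI-H358, NCI-H441 and HCC364. At FSTL4, a follistatin-like gene, it covered 27.9 kb against 7.43, 5.29 and 22.1 kb. At CUL2, a cullin of ubiquitin ligases, HCC364 had the most, 16.7 kb against 10.6 kb in NCI-H2087, and at SKAP2, with 2 of 6 private regions acetylated, it also led, with 9.80 kb against 8.74 kb. NCI-H2087 thus had the longest H3K27ac at FSTL4, ARHGAP28, OCLN, AKAP6 and SOBP but not at CUL2 and SKAP2. The private regions given to CUL2 had low NKX2-1 folds of 2.09 to 5.65. At 34 to 35 Mb of chromosome 10, where CUL2 was among the nearest genes, the NKX2-1 background was 5.99 times the lowest. The part of this background was not tested.

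**Figure D5:**
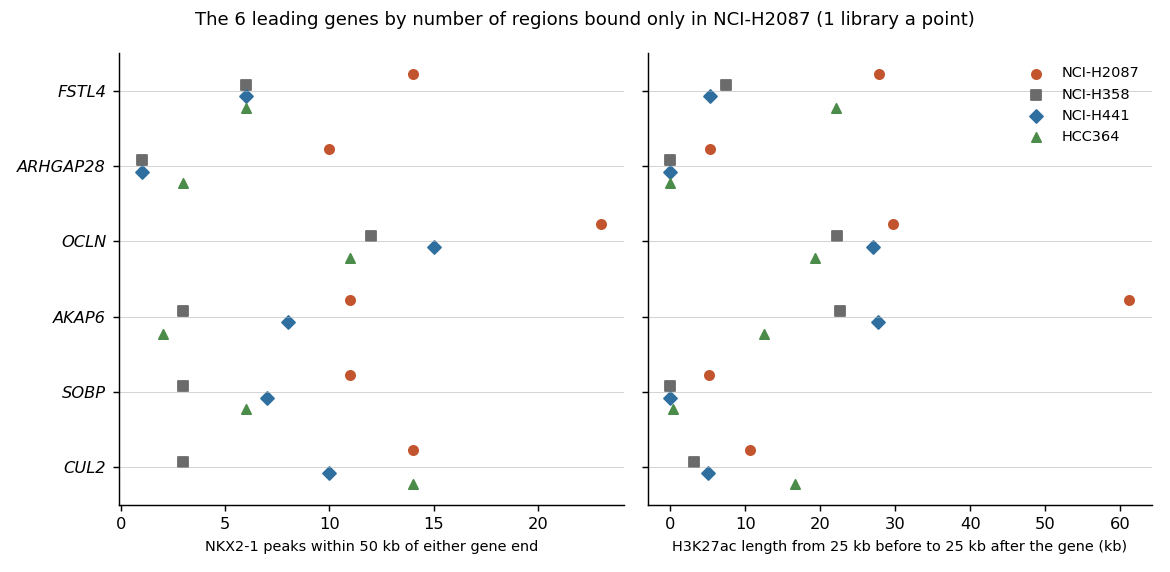
NKX2-1 peaks within 50 kb of either gene end (left) and H3K27ac length in kb over the gene and 25 kb on each side (right) in the 4 lines, 1 library a point, for 6 genes with the most private regions (y axis). ARHGAP28 and SOBP have H3K27ac almost only in NCI-H2087 (5.31 and 5.10 kb), while CUL2 has the longest H3K27ac in HCC364 (16.7 kb).

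Gene lists were set beside all genes, of which 37.3% had a private region within 50 kb of an end. The HOXB genes, which give position along the body axis, had one at 9 of 10 genes. These windows overlap and share 7 private regions on chromosome 17, with folds from 3.51 to 9.32, of which 5 were acetylated, 6 had H3K4me3 and 2 had a FOXA factor. NKX2-1 peaks within 50 kb of HOXB6 numbered 9 in NCI-H2087, 6 in HCC364, 2 in NCI-H441 and 0 in NCI-H358, and H3K27ac over the gene and 25 kb on each side covered 19.4, 8.30, 0.621 and 0 kb in the same order. For HOXB3 the peaks numbered 15, 9, 10 and 2 and H3K27ac covered 16.9, 8.95, 0.900 and 0 kb. NCI-H2087 had the longest H3K27ac at HOXB3 to HOXB9, followed by HCC364. At the other end of the locus the order differed, and NCI-H441 had the most, with 7.001 kb at HOXB1 against 0.906 kb in NCI-H2087 and 2.99 kb at HOXB2 against 0.382 kb.

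Of the alveolar type 2 genes 9 of 15 had a private region, led by LAMP3 (4), SLC34A2 (3) and HHIP (2). At SLC34A2, the phosphate transporter of these cells, none of the 3 was acetylated, and H3K27ac covered 0.451 kb in NCI-H2087 against 3.62, 6.85 and 7.94 kb in NCI-H358, NCI-H441 and HCC364. Of the receptor kinase and MAPK genes 9 of 12 had one, with EGFR at 2 and the other 8 at 1 each. All 12 were acetylated at an end in NCI-H2087. So were 11597 of 19974 protein-coding genes, all 14 epithelial genes and 9 of 10 housekeeping genes. Of the AP-1 genes 6 of 9 had one, with 4 near ATF3 and none of those acetylated. Of the epithelial genes 7 of 14 had one, OCLN leading with 8, 1 more than were nearest to it. Of the ciliated cell genes 3 of 10 had one, including MCIDAS, a regulator of ciliogenesis, with 5 of which 3 were acetylated. The neuroendocrine genes had one at 1 of 10 (UCHL1, 3 regions) and the alveolar type 1 genes at 2 of 10 (EMP2 and CLIC5).

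Each list held only 9 to 15 genes, those described above included. The lung and foregut transcription factors had one at 6 of 15, among them TFAP2A (2) and NFIB (2). The airway secretory, basal and mesenchymal genes had one at 4 of 10 each. The gastric, intestinal and liver genes, the immune cell genes and the housekeeping genes had one at 5 of 10 each, the same share as the epithelial genes. TFF1 and TFF2, secreted gastric mucosal peptides, shared windows and had 3 each, none acetylated.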

How the data were processed

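ChIP-seq peak lists of 20 libraries from 4 lung adenocarcinoma lines were analysed, 1 library for each line and target. The titles gave the groups, and the 5 inputs were not used. The submitters' processing notes name MACS2 2.1.1 and 2.2.7.1, bedtools, Bowtie2 2.2.9, SAMtools 1.9 and Trimmomatic 0.36 and the build hg38, with no role for each.

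Each deposited list is in narrowPeak format. The authors' fold of the summit over local background is a linear ratio, deposited in column 7. The deposited −log10 p and −log10 q and the peak score are the authors' values too. They served to describe, rank and filter peaks within a list. The lists hold no read totals, so the depth is unknown. A longer list overlaps more with any other, and a factor can be present where no peak was called.

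Peaks on chromosomes 1 to 22 and X were merged when they overlapped by at least 1 bp, and a region had a mark or factor when it overlapped a peak by at least 1 bp. The local background was solved from fold and p to within 0.01 of the deposited −log10 p. Starts came from the RefSeq promoter table for 15812 of 19974 protein-coding genes, and both annotated ends (GRCh38.p14) were used for the others. The genes named are the 12 with the most private regions, those nearest the 10 regions of highest fold, the 8 largest clusters and the 5 regions with most factors, the 8 with private acetylated ends, and the 3 leading genes of a list, some of which are not reported here. The regions, gene lists and tests were chosen with earlier results of these data known. A planned motif count in the regions was left out for want of a genome. Promoter windows were searched in its place, which was decided after the data were seen. Alternatives changed the peak threshold, list length, overlap, width, lines merged, windows and stitching. Scripts used Python 3.11.15, numpy 2.4.6, pandas 2.3.3, scipy 1.17.1 and matplotlib 3.10.9 and were tested on simulated data.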

Additional observations from a re-analysis of the deposited data

How the results depend on the processing

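At private regions minus regions bound in all lines, the shares of H3K27ac, H3K4me1, H3K4me3, RNA polymerase II, c-Jun, EP300 and CTCF stayed negative under every alternative run. The differences of FOXA1, FOXA2 and SOX2 changed sign with peak strength and width. With the 20000 strongest peaks per list these differences were 2.103, 6.89 and 11.3 percentage points. The SOX2 list, with 9262 peaks, was kept whole in that setting. With 50% of the region covered the differences were 7.81, 12.6 and 7.40. This last setting depends on region width, whose median was 366 bp for private and 872 bp for 4-line regions. Peaks of FOXA1, FOXA2 and SOX2 had median widths of 457, 467 and 395 bp. Within the 4 ranges of NKX2-1 fold FOXA1 gave 3.72, 10.5, 11.7 and 2.34, FOXA2 gave 9.57, 16.3, 19.5 and 7.70, and SOX2 gave 3.27, 4.71, 10.1 and 9.86. With NCI-H2087 peaks of −log10 q of at least 10, FOXA2 gave 3.90 and SOX2 2.33. FOXA2 gave 4.42 with summits within 200 bp, and with 1 line left out of the merge it ranged from -8.96 to 0.747, the positive value without NCI-H358. The cause was not tested.

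Private regions numbered 4298 with the 20000 strongest peaks and 12344 to 16648 with 1 of the other lines left out, the highest without NCI-H441, since fewer lines could then remove a region. With −log10 q of at least 10 in NCI-H2087, H3K27ac was at 24.0% and H3K4me1 at 49.97% of private regions, any of the 5 factors at 72.6%, any of CTCF, H3K4me3 and RNA polymerase II at 15.5%, starts within 1 kb at 4.06%, clusters at 2.86%, and 26.1% of genes had a region within 50 kb. With the 20000 strongest peaks these 7 values were 30.7%, 41.6%, 78.2%, 19.0%, 6.21%, 2.07% and 18.3%. The shorter lists of EP300 (7406 peaks) and SOX2 (9262) were kept whole there while the others were cut. EP300 was then at 15.4% of private regions, against 1.11% in the main run, and its difference from 4-line regions was -20.3 percentage points. With no peak of another line within 1 kb the 7 values were 20.9%, 43.9%, 66.6%, 18.0%, 4.99%, 3.10% and 30.6%. With windows of 500 bp on summits H3K27ac was at 32.7%, H3K4me1 at 50.4%, the CTCF, H3K4me3 and RNA polymerase II group at 24.6%, starts at 8.63%, and 42.1% of genes had a region. With single peaks overlapping by 50% that group was at 22.3%, and 38.5% of genes had a region. With 50% of the region covered H3K27ac was at 19.7%, H3K4me1 at 36.8%, any factor at 62.2% and that group at 19.4%. With marks and factors of −log10 q of at least 10 these were 22.3%, 29.7%, 60.9% and 20.1%. Any factor summit within 200 bp was at 59.7%. With 1 line left out of the merge H3K27ac ranged from 29.8% to 31.0%, H3K4me1 from 46.7% to 52.7%, any factor from 59.8% to 64.6%, that group from 20.8% to 29.2%, starts from 6.39% to 10.1%, clusters from 5.71% to 8.68%, and genes from 44.5% to 55.0%. Starts within 5 kb stood at 15.8%, clusters at 1.91% with stitching at 5 kb and 9.79% at 20 kb, and genes with a region within 10 kb at 14.3%. Leaving out the 1 Mb bins of high local background, chosen after seeing the data, moved none of these values beyond counting error. No paired analysis was possible because each line and target has 1 library.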
